A study of Arabidopsis thaliana with 53 samples.

Results

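HB7 (AT2G46680), HB12 (AT3G61890), HB5 (AT5G65310) and HB6 (AT2G22430) are class I homeodomain-leucine zipper (HD-ZIP I) genes of Arabidopsis thaliana. They were chosen by name, as 4 of 27444 protein-coding genes, and were read in 18 lists of open-chromatin peaks. A peak was assigned to a gene where its summit, the base of strongest signal, lay inside the gene or within 1500 bp of either end. Over the 18 lists this gave 16 peaks at HB7, 42 at HB12, 60 at HB5 and 31 at HB6.

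HD-ZIP I proteins are plant transcription factors that bind DNA as dimers held together by a leucine zipper next to the homeodomain. Several of them act in responses to drought and to abscisic acid (ABA), the hormone that closes stomatal pores and slows root growth when water is short. HB7 and HB12 are close paralogues whose transcripts accumulate under drought and ABA, and they act on genes of the clade A protein phosphatases 2C (PP2Cs), the negative regulators of ABA signalling. HB6 is a negative regulator of the ABA response whose protein binds the clade A PP2C ABI1, and HB5 is a positive regulator of ABA responses in seedlings. ABF1 to ABF4 are basic leucine zipper factors that activate genes through ABA-responsive elements.

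The assay was ATAC-seq, in which Tn5 transposase cuts accessible DNA and so marks open chromatin. It was run on sorted nuclei of Col-0 plants that expressed a nuclear histone H2B-EGFP marker particular to a cell type. The promoters driving these markers and the age of the plants were not given in the sources used here. The 53 samples formed 18 groups, of which 3 had 2 samples, 13 had 3 and 2 had 4, and each group had 1 deposited peak list. Wild-type (WT) groups were whole seedlings with 50 µM ABA for 4 h and their control, mesophyll with ABA for 4 h and its control, guard cells with ABA for 4 h or 24 h and their control, and seedling roots with ABA for 45 min, 2 h or 4 h and their control. Groups of the abf1/2/3/4 quadruple mutant were guard cells with ABA for 4 h and their control, and roots with ABA for 45 min, with ABA for 2 h by the titles (4 h by the characteristics), and their control. WT guard cells were also taken after 4 h at 1000 ppm CO2 and at 100 ppm CO2. Control plants received the ethanol vehicle of ABA, and their labels state 4 h. WT lists with ABA for 45 min, 2 h or 24 h, and the mutant list at 45 min, thus had no control labelled with their own time. Time and ABA cannot be told apart in those comparisons. Seedlings were moved in bulk to plates holding ABA or vehicle, and rosettes of mature plants were sprayed. For guard cells and mesophyll the labels do not say which of these was used.

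The lists held 15345 peaks (mesophyll, ABA) to 27514 peaks (WT root, ABA for 2 h), and 353370 in all. Since a group had 1 list and no values per sample, the spread between replicates is not known here and no difference was tested. The number of reads behind a list is unknown, and lists of unequal length or from groups of unequal size can differ in weak peaks. With all lists cut to the length of the shortest, HB7 had a peak in 12 lists. Gained and lost peaks were recounted with both lists of a comparison cut to the length of the shorter. The counts of WT ABA comparisons with a gained or a lost peak were then as reported for all 4 genes. Guard cell markers (5 genes) all had a peak in each guard cell list, against 1 in the mesophyll lists, 2 to 4 in the root lists and 2 in the seedling lists. Root markers (7 genes) had 6 or 7 in the root lists, against 3 in the guard cell lists, 2 in the mesophyll lists and 4 or 5 in the seedling lists. The 4 mesophyll markers all had a peak in the mesophyll and seedling lists, and 1 to 4 of them did in the other lists.

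A peak was present at HB12, HB5 and HB6 in all 18 lists, and at HB7 in 13. Within 500 bp of the gene, HB12 had a peak in 7 lists. By comparison, 41.3% of all genes had a peak in all 18 lists and 58.2% in at least 13. In the list with the fewest genes reached (mesophyll, ABA) 55.2% of all genes had a peak, and in the list with the most (WT root, ABA for 4 h) 75.8%. Peaks were ranked within each list by the authors' −log10 p, and a rank is given here as a percent of the list's length, so that a low percent lies near the top. The strongest peak at HB5 was in the top 10 percent of its list in all 18 lists, that at HB6 in 9, that at HB12 in 4 and that at HB7 in 1. Of all genes, 2.15% had a peak in the top 10 percent in all 18 lists, 8.43% in at least 9, 15.6% in at least 4 and 24.6% in at least 1. The 4 lists of HB12 were the WT root lists, and that of HB7 was WT root with ABA for 4 h. These counts depend on the measure, and ranking by area score put HB7 in the top 10 percent in 6 lists and HB12 in 9. HB5 held the highest-ranked peak of the 4 genes in the guard cell, root and seedling lists, and HB6 did in both mesophyll lists.

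**Figure D1:**
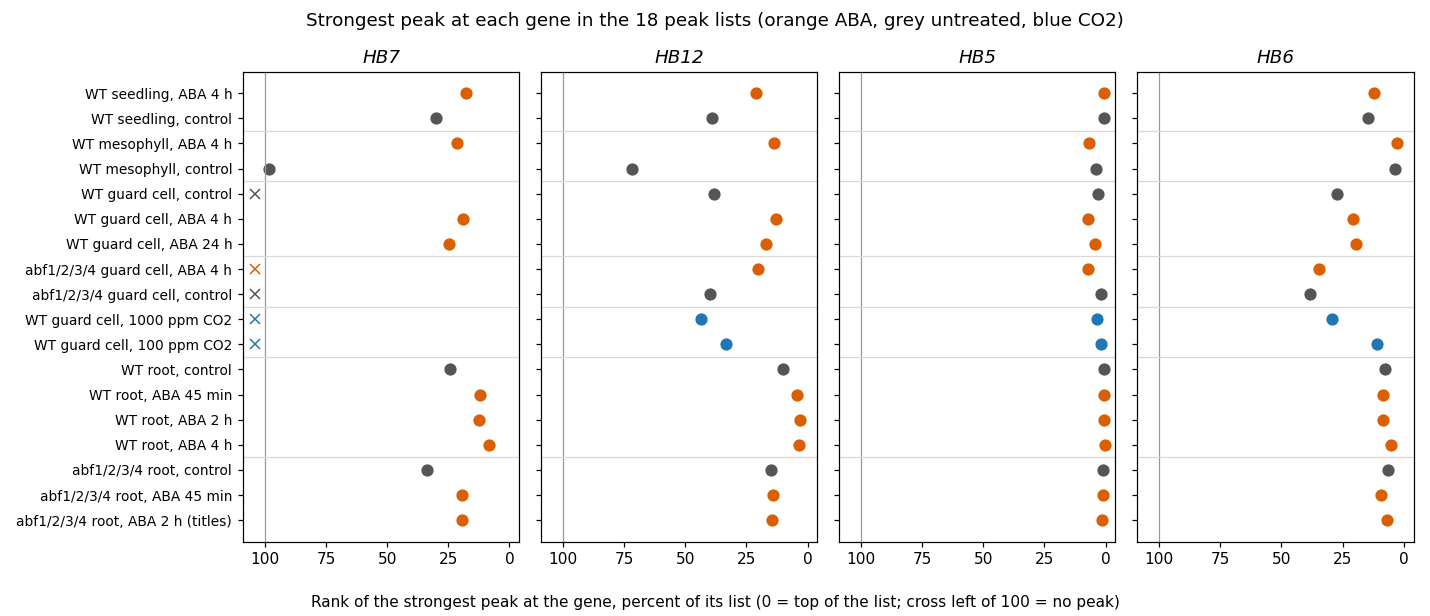
Rank of the strongest peak at each gene (x axis, percent of the list, 0 at the top of the list, drawn at the right) in each of the 18 lists (y axis), with ABA lists in orange, untreated lists in grey and CO2 lists in blue. Crosses mark the 5 guard cell lists with no peak at HB7, and HB5 points lie between 0.441% and 7.22% in every list.

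HB7 had 1 main site, at its higher-coordinate end on chromosome 2 (TAIR10, per the submitters' processing notes). The summit of this site lay at 19166906 to 19166908 in 12 lists, 59 to 61 bp inside the gene, and at 19166987, 20 bp beyond the gene, in the mesophyll control list. The gene table used has no strand and no exons, so gene ends are named by coordinate and the gene start is not identified here.

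In guard cells the HB7 site was present in WT with ABA and in no other guard cell list. With ABA for 4 h the peak ran from 19166710 to 19167962 (−log10 p of 11.0, rank 3410 of 17891, or 19.1%), and with ABA for 24 h from 19166786 to 19167647 (−log10 p of 13.7, rank 4762 of 19239, or 24.8%). The WT control list, both abf1/2/3/4 lists (ABA and control) and the 1000 and 100 ppm CO2 lists held no peak there. Gained peaks, those of a treated list that share no base with its control list, reached 6.79% of all genes in guard cells at 4 h and 6.02% at 24 h. Of the 1505 gained peaks at 4 h, 38 (2.52%) ranked as high as this HB7 peak or higher, and of the 1433 at 24 h, 37 (2.58%) did. Across all genes, 166 (0.605%) had a peak in both ABA-treated WT guard cell lists and in none of the other 5 guard cell lists. Of these 166 genes, 64 (38.6%) had a peak in all 7 root lists, as HB7 did.

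The peak was lacking from abf1/2/3/4 guard cells with ABA, and 7.40% of all genes lacked a WT peak in that comparison of mutant with WT. Of the 1572 peaks of the ABA-treated WT list that shared no base with the ABA-treated mutant list, 23 (1.46%) ranked as high as the HB7 peak or higher. In the 5 lists without a peak at HB7, the nearest summit lay 1502 to 1528 bp beyond its lower-coordinate end, just outside the distance used. The next gene on that side, AT2G46670, begins 40 bp away. With a distance of 3000 bp, HB7 had a peak in all 18 lists. It also had one in all 18 where any base of a peak within 1500 bp was counted in place of the summit.

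**Figure D2:**
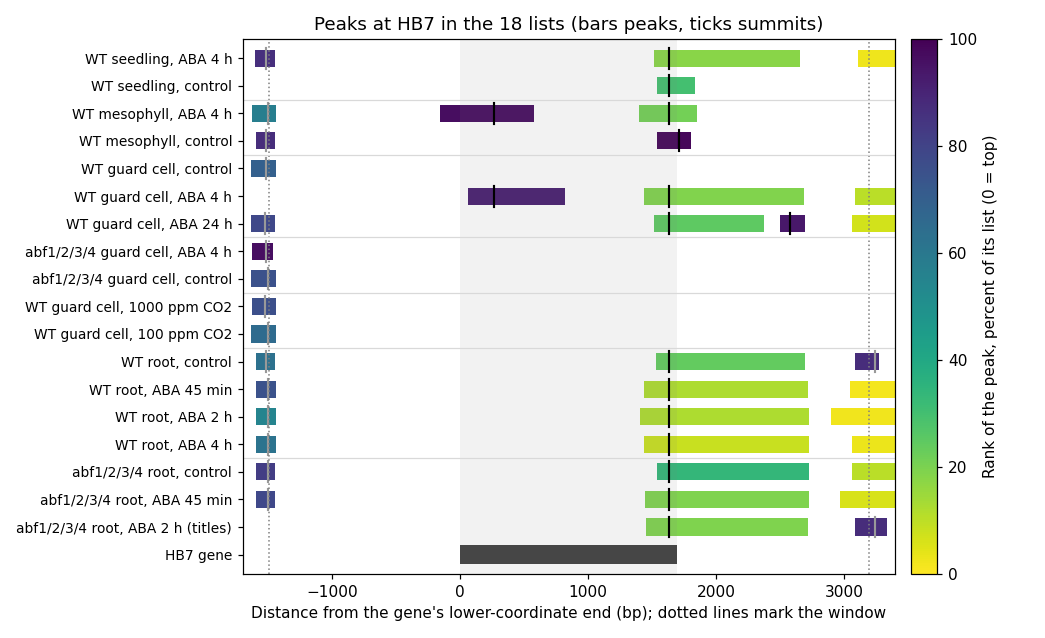
Peaks around HB7 in the 18 lists (rows), as bars by distance in bp from the gene's lower-coordinate end (x axis), with ticks at summits and colour for rank within the list (0 at the top). The bar at the higher-coordinate end is present in all root, seedling and mesophyll lists and, among the 7 guard cell lists, in those of WT with ABA for 4 h and 24 h.

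In roots the HB7 site was open in all 7 lists, the untreated ones included. In WT it ranked at 24.1% in the control list (−log10 p of 11.8), 12.1% after 45 min of ABA (11.6), 12.3% after 2 h (16.0) and 8.42% after 4 h (16.3). In the mutant it ranked at 19.5% after 45 min of ABA (9.01) and 19.5% in the list titled 2 h (8.74), against 33.6% in the mutant control list (8.23). The peak therefore stood nearer the top of the list with ABA in both genotypes, by 12.0, 11.8 and 15.7 percentage points in WT and by 14.1 points in both mutant comparisons. A move of at least 10 points towards the top was made by 1.99%, 16.4% and 16.5% of the genes with a peak in both lists in WT roots at the 3 times, and by 4.66% and 6.83% of such genes in the mutant at 45 min and in the comparison titled 2 h. The median over such genes was −7.61 points in WT roots at 45 min, where the list held 19885 peaks against 25753 in the control. It was 0.80 and 0.20 points at 2 h and 4 h. The WT comparisons share 1 control list and the mutant comparisons another.

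In mesophyll the HB7 peak ranked at 21.3% with ABA (19166673 to 19167127, −log10 p of 9.45) and at 98.2% in the control (19166814 to 19167080, −log10 p of 3.91). The control peak was thus near the bottom of its list, at rank 15637 of 15928, and did not reach the stricter threshold of a −log10 p of 5. The difference was 76.9 points, and 0.0972% of the 14409 genes with a peak in both mesophyll lists moved as far towards the top. At least 10 points were reached by 11.8%. In seedlings the peak ranked at 17.9% with ABA and at 30.1% in the control, a difference of 12.2 points, and 14.8% of genes with a peak in both lists moved towards the top by at least 10. Its width was 1142 bp with ABA and 297 bp in the control. In the root lists its width was 1168 to 1324 bp.

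Weaker HB7 peaks were found with ABA inside the gene near its lower-coordinate end. They lay at 19165540 in mesophyll (rank 14841 of 15345) and at 19165534 in guard cells after 4 h (rank 16386 of 17891). Another lay 883 bp beyond the higher-coordinate end in guard cells after 24 h (rank 18005 of 19239). Its position was covered by a peak in 10 lists, the WT and abf1/2/3/4 root controls included, and had a separate summit in this list only. These 3 ranks are near the bottom of their lists. The pair inside the gene also falls within 1500 bp of AT2G46670. Through these and the main site, HB7 had a gained peak in 3 of the 7 WT ABA comparisons (mesophyll and guard cells at both times). Of all genes, 6.66% had one in 3 or more. In the mutant HB7 had a gained peak in 0 of the 3 comparisons. Among those, only guard cells at 4 h match a WT comparison with a gained peak. The others are of roots, where WT had no gained peak at HB7 either.

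HB12 had 3 sites on chromosome 3. The first, with its median summit at 22913504, lay 650 bp beyond the lower-coordinate end and was present in all 18 lists at ranks between 23.5% and 87.2%. The second, at 22915382, lay at the higher-coordinate end and had its own summit in 7 lists. The third, at 22916197, lay 804 bp beyond that end and was present in 17 lists, all but the mesophyll control list. Its rank ran between 2.96% and 92.0%, the widest range of the 3.

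With ABA, peaks that were separate beyond the higher-coordinate end of HB12 appeared as a wider peak in WT roots, guard cells and seedlings, but not in mesophyll. In WT roots the control list held separate peaks at 22915854 to 22916472, 22917033 to 22917596 and 22918197 to 22919009. After 45 min of ABA a peak of 3686 bp ran from 22915325 to 22919010, and after 2 h and 4 h a peak of 3734 bp ran from 22915312 to 22919045. Each of these 3 peaks overlapped 3 control peaks, as did 0.0553%, 0.294% and 0.234% of all peaks of the lists at 45 min, 2 h and 4 h. Peaks at least as wide numbered 15 of 19885, 40 of 27514 and 15 of 25604 in the same order. No other protein-coding gene lies in this stretch, since the next one on that side is 7156 bp from HB12. Neighbouring peaks of a list were never nearer than 101 bp, so shorter gaps cannot be seen in the lists.

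The same stretch in abf1/2/3/4 roots stayed divided into 3 peaks in each list. The peak next to HB12 was 1476 bp wide after 45 min of ABA and 836 bp wide in the list titled 2 h, against 615 bp in the mutant control. Peaks covered 78.4% of the 3734 bp after 45 min of ABA and 59.7% in the list titled 2 h, against 53.4% in the mutant control. In WT roots they covered 53.5% in the control, 98.7% at 45 min and 100% at 2 h and 4 h, the lists from which the stretch was taken. Set directly against the mutant, the WT peak overlapped 3 mutant peaks at 45 min, as did 0.0654% of WT peaks, and again 3 in the comparison titled 2 h, as did 0.244%. The mutant list at 45 min comes from 2 samples and the WT list from 3, and the mutant lists at both times are shorter than the WT lists. Such joining was not particular to HB12. Outside the distance used for HB7, a WT root peak ran from 2902 to 5953 bp past its lower-coordinate end with ABA for 2 h. With ABA for 4 h it ran from 3066 to 5919 bp. The WT root control held separate peaks there, between 3091 and 5698 bp. WT roots at 45 min and the abf1/2/3/4 root lists were also divided there.

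In guard cells the HB12 peak next to the gene was wider with ABA in both genotypes. It measured 1491 bp in WT with ABA for 4 h (22915284 to 22916774) and 1509 bp with ABA for 24 h (22915294 to 22916802), and each overlapped 2 peaks of the WT control list, of 322 and 759 bp. It measured 1399 bp in abf1/2/3/4 with ABA for 4 h (22915292 to 22916690) and overlapped 2 peaks of the mutant control list, of 273 and 662 bp. Overlap with at least 2 control peaks was seen for 3.30%, 2.57% and 3.09% of all peaks in these 3 comparisons. Peaks covered 93.1% of the stretch in WT with ABA for 4 h and 94.6% with ABA for 24 h, against 74.0% in the WT control. In the mutant they covered 89.9% with ABA and 69.0% in the control. In seedlings a peak of 1177 bp with ABA overlapped 2 control peaks, as did 1.36% of all peaks, and the cover was 85.3% with ABA and 51.0% in the control. In mesophyll the cover was 72.0% with ABA, in 5 separate peaks, and 25.9% in the control, in 3. The third site was a gained peak in mesophyll (22915870 to 22916457, rank 7603 of 15345). This was the only one of the 7 WT ABA comparisons with a gained peak at HB12, and 7.13% of all genes had a gained peak in mesophyll.

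**Figure D3:**
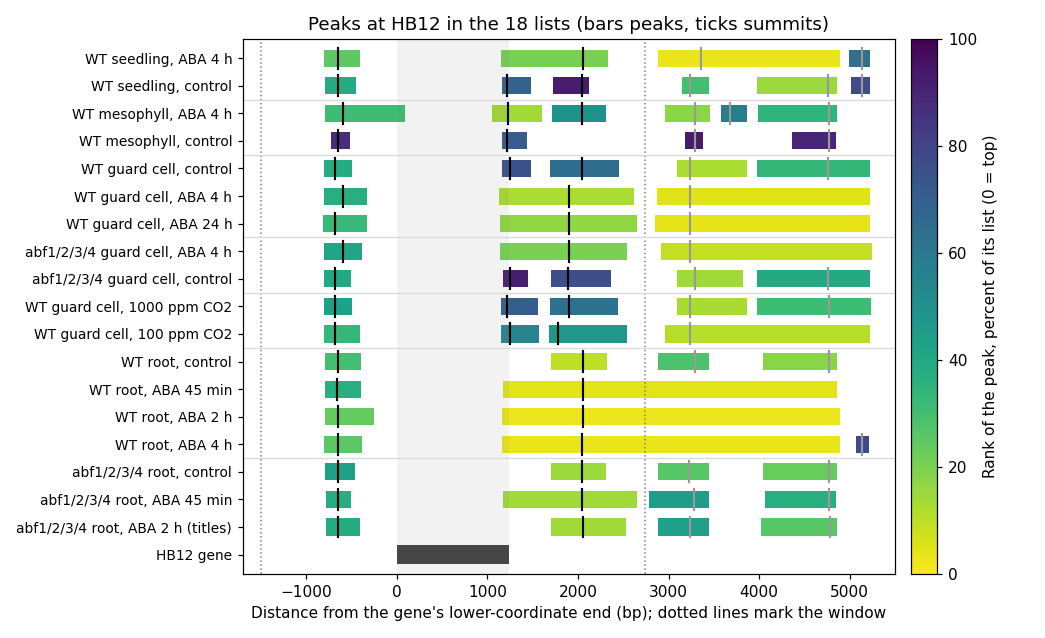
Peaks around HB12 in the 18 lists (rows), as bars by distance in bp from the gene's lower-coordinate end (x axis), with ticks at summits and colour for rank within the list (0 at the top). The 3 ABA lists of WT root hold a continuous bar of 3686 or 3734 bp from the gene's higher-coordinate end, where the WT and abf1/2/3/4 root controls hold 3 separate bars.

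The strongest HB12 peak stood nearer the top of the list with ABA in each tissue of WT, but it was not the same site throughout. In seedlings and in guard cells of both genotypes it was the first site in the control and the third with ABA. In mesophyll it was the second site in both lists, and in roots the third in every list. The strongest peak ranked at 12.7% in WT guard cells after 4 h and 16.8% after 24 h, against 38.4% in the control. A move of at least 10 points towards the top was made there by 11.5% of genes with a peak in both lists at 4 h and by 9.11% at 24 h. In mesophyll it ranked at 13.7% with ABA and 71.7% in the control, and 0.354% of genes with a peak in both lists moved as far towards the top. In seedlings it ranked at 21.1% with ABA and 38.9% in the control. There the third site ranked at 92.0% in the control, and the first at 24.6% with ABA. In WT roots the strongest peak ranked at 9.84% in the control and at 4.31%, 2.96% and 3.35% after 45 min, 2 h and 4 h of ABA. In abf1/2/3/4 guard cells it ranked at 20.1% with ABA and 40.1% in the control, and 14.2% of genes with a peak in both lists moved towards the top by at least 10 points. In mutant roots it ranked at 14.2% after 45 min of ABA and 14.4% in the list titled 2 h, against 15.1% in the mutant control. With ABA the strongest peak thus stood 20.0 points nearer the top in mutant guard cells. In WT guard cells it stood 25.7 points nearer at 4 h and 21.6 at 24 h. These differences set the third site against the first. The third site itself ranked at 64.9% in the WT guard cell control and 76.2% in the mutant one. The first site ranked at 38.4% in the WT control, 36.8% after 4 h and 32.5% after 24 h of ABA. In mutant guard cells the first site ranked at 40.1% in the control and 41.0% with ABA. In roots the difference was 0.93 and 0.68 points in the mutant, against 5.52, 6.88 and 6.48 points at the 3 times in WT. Of genes with a peak in both lists, 29.7% and 33.6% moved as far towards the top in the mutant, against 3.54%, 23.4% and 23.9% in WT. Set directly against WT, the mutant peak differed by −9.88 points at 45 min and −11.5 points in the comparison titled 2 h, where a negative value is farther from the top in the mutant. The median over genes with a peak in both lists was −2.10 points at 45 min and −11.2 points in the comparison titled 2 h. The root difference between genotypes in the later comparison is thus close to that of all such genes. None of these differences between genotypes was tested.

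HB5 held its strongest site 1214 bp beyond its lower-coordinate end on chromosome 5, with the summit between 26100602 and 26100749 in all 18 lists. It ranked at 0.441% to 1.61% in the 7 root lists and at 0.601% and 0.829% in the seedling lists. In the mesophyll lists it ranked at 3.99% and 6.78%, and in the guard cell lists at 1.69% to 7.22%. No rank differed by more than 5.21 points between an ABA list and its control, and the largest difference was that of abf1/2/3/4 guard cells (7.22% with ABA and 2.00% in the control). The peak was wider in WT roots than elsewhere, at 1944 bp in the control and 1339, 1344 and 1341 bp after 45 min, 2 h and 4 h of ABA. In mutant roots it measured 725 bp after 45 min of ABA, 715 bp in the list titled 2 h and 717 bp in the control. Each mutant root list held another peak 143 to 150 bp away in the same stretch. Peaks covered 82.9% of the 1944 bp in the mutant control, 61.1% after 45 min and 60.5% in the list titled 2 h. In WT roots they covered 85.2% at 45 min and 68.9% at 2 h and 4 h. The stretch was taken from the WT root control, so its cover there was 100%.

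All HB5 sites beyond the higher-coordinate end were absent from guard cells. A site 14 bp beyond the higher-coordinate end (26104628) had a summit or a covering peak in all 7 root, 2 mesophyll and 2 seedling lists and in 0 of the 7 guard cell lists. A site 177 bp beyond that end (26104791) had the same pattern, with its own summit in 2 root lists. So did a site 734 bp beyond that end (26105348). In the WT control lists it ranked at 8.45% in roots, 8.46% in seedlings and 36.1% in mesophyll. Setting untreated guard cells against untreated roots, 34.5% of all genes had a peak in roots that shared no base with the guard cell list. Of the 9606 such peaks, 133 (1.38%) ranked as high as the HB5 peak at 26105348 or higher. Against untreated mesophyll, 10.6% of all genes had such a peak, and HB5 had those 14 bp and 734 bp beyond its end.

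**Figure D4:**
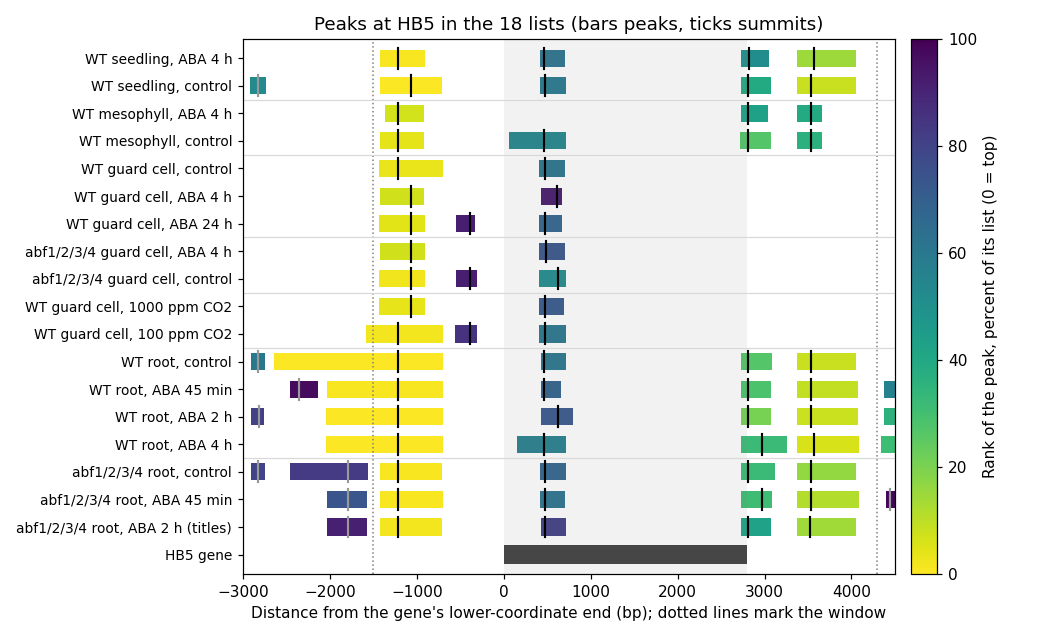
Peaks around HB5 in the 18 lists (rows), as bars by distance in bp from the gene's lower-coordinate end (x axis), with ticks at summits and colour for rank within the list (0 at the top). A bar of high rank lies about 1214 bp before the lower-coordinate end in every row, and the bars from the higher-coordinate end to the dotted line beyond it are missing from the 7 guard cell rows.

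Gains and losses at HB5 concerned its lower-ranked sites. A site inside the gene (26102288) was present in 17 lists, at ranks between 51.9% and 93.2%, and was absent from the ABA list of mesophyll. It was a lost peak there (−log10 p of 6.60, rank 8640 of 15928 in the control), as 10.2% of all genes had in that comparison. Of the 2149 lost peaks of mesophyll, 141 (6.56%) ranked as high or higher. A site 389 bp beyond the lower-coordinate end (26101429) appeared in 3 guard cell lists at ranks between 85.6% and 91.5%. These were WT with ABA for 24 h, the abf1/2/3/4 control and 100 ppm CO2. By it HB5 had a gained peak in WT guard cells at 24 h, a lost peak in abf1/2/3/4 guard cells with ABA (11.0% of all genes had a lost peak) and a lost peak at 1000 ppm against 100 ppm CO2 (8.42%).

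HB6 differed between tissues in where the open chromatin at its higher-coordinate end peaked, on chromosome 2. In the 7 guard cell lists and the mesophyll control list the summit lay between 9527799 and 9527867. In the 7 root, 2 seedling and the ABA-treated mesophyll lists it lay between 9528073 and 9528099, about 230 bp beyond the gene. Both positions were covered by a peak in all 18 lists, so the difference was in the summit and not in presence. A site inside the gene near its lower-coordinate end (9526300) had a summit in all 7 guard cell lists and the mesophyll control list. It was covered in the ABA-treated mesophyll list and was absent from all 7 root and both seedling lists. Its ranks ran from 69.0% to 80.6%. Peaks beyond the higher-coordinate end are also within 1500 bp of AT2G22440, which lies 1064 bp from HB6.

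In roots the strongest HB6 peak ranked at 7.69% in the WT control and at 8.28%, 8.30% and 5.13% after 45 min, 2 h and 4 h of ABA. It was 616 bp wide in the control, beside a weak peak of 321 bp, and 1008, 971 and 1020 bp wide at the 3 times, each overlapping both control peaks. Overlap with at least 2 control peaks was seen for 1.38%, 3.06% and 3.42% of all peaks of these lists. In mutant roots it was 1016 bp wide after 45 min of ABA and 967 bp in the list titled 2 h, against 912 bp in the control. In mesophyll the HB6 peak with ABA was 1089 bp wide and ranked at 2.60%, against 633 bp and 3.73% in the control, and it overlapped 2 control peaks, as did 1.52% of all peaks.

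**Figure D5:**
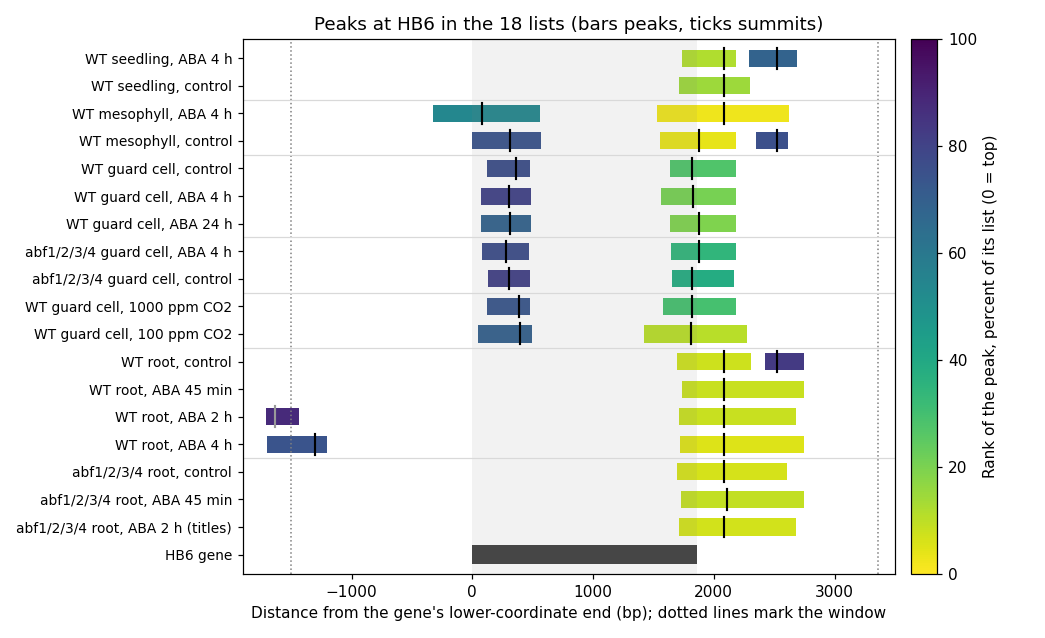
Peaks around HB6 in the 18 lists (rows), as bars by distance in bp from the gene's lower-coordinate end (x axis), with ticks at summits and colour for rank within the list (0 at the top). Bars inside the gene near its lower-coordinate end are present in guard cell and mesophyll rows and absent from the 7 root and 2 seedling rows.

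In guard cells the HB6 peak ranked at 20.7% with ABA for 4 h and 19.5% with ABA for 24 h, against 27.5% in the WT control. In abf1/2/3/4 guard cells it ranked at 34.6% with ABA and 38.4% in the control. It thus stood farther from the top in the mutant than in WT, by 13.9 points with ABA and by 11.0 points without. Of genes with a peak in both lists, 11.3% stood at least 10 points farther from the top in the mutant with ABA and 11.9% without. The only gained peak at HB6 in the 7 WT ABA comparisons was that of roots at 4 h (9524688, rank 18913 of 25604), where 17.0% of all genes had a gained peak.

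The CO2 comparison of guard cells gave no gained peak at the 4 genes, against 6.99% of all genes. The strongest peak stood farther from the top at 1000 ppm than at 100 ppm for HB6 (29.4% and 10.7%), HB12 (43.4% and 33.2%) and HB5 (3.64% and 1.69%). The HB6 and HB12 differences were 18.7 and 10.2 points, and 12.2% of genes with a peak in both lists stood at least 10 points farther from the top. Farther beyond HB12, 2 separate peaks at 1000 ppm lay where a peak ran from 22917111 to 22919382 at 100 ppm. Of all peaks at 100 ppm, 4.20% overlapped at least 2 peaks of the 1000 ppm list, against 0.920% the other way. Peaks covered 76.0% of the 3734 bp stretch at 1000 ppm and 85.8% at 100 ppm. HB7 had no peak in either list.

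Of the 4 genes, HB7 and HB12 were the most alike over the 18 lists. Likeness was the Pearson correlation of the percent rank of the strongest peak, with 0 for no peak and 100 for the first rank. It was 0.77 for HB7 with HB12, 0.62 for HB7 with HB6, 0.38 for HB5 with HB6, 0.31 for HB7 with HB5, 0.30 for HB12 with HB6 and 0.17 for HB12 with HB5. The points share tissues and control lists, so these are descriptions. Among 23681 other genes with a peak in at least 1 list, those most like HB7 were AIRP1 (0.98), a RING-type ubiquitin ligase of ABA signalling, CCR2 (AT1G80820; 0.98), a cinnamoyl-CoA reductase, and IQD32 (0.95). AIRP1 and CCR2 had a peak in 13 lists, as HB7 did. Those most like HB12 were LTI30, a dehydrin, and its neighbours PLP3a and XERO1, all at 0.95 since they share a peak. The closest to HB5 were AT5G61970 (0.95), MSD1, a mitochondrial manganese superoxide dismutase (0.94), and AT5G23100 (0.94). The closest to HB6 were SK20 (0.92), the heat shock factor HSFB2A (0.91) and AT1G54120 (0.90).

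Among the 13 other HD-ZIP I genes, 6 had a gained peak in at least 1 of the 7 WT ABA comparisons, against 38.8% of all genes. HB21, a gene linked to ABA accumulation in axillary buds, had a gained peak in all 7, as did 20 genes (0.0729%) in all. HB40 and HB52 had a gained peak in roots at 2 h and 4 h and in mesophyll, HB16 in guard cells at both times, and HB51 and HB53 in roots at 4 h. A lost peak was found at 5 of the 13, against 50.4% of all genes, and of these 5 HB16 and HB51 also had a gained peak. In the mutant, HB23 alone of the 13 had a gained peak, in guard cells. HB3, HB13, HB20 and HB22 had no peak in any guard cell list, and HB22 had none in any list. Of all genes, 65.8% (WT with ABA for 4 h) to 71.5% (WT control) had a peak in a single guard cell list. A peak in at least 1 list of any tissue was found for 86.3% of all genes. The share of all genes without a peak in every guard cell list was not counted, so these absences are not set apart from the background.

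Of the 9 clade A PP2C genes, 8 had a gained peak in at least 1 WT ABA comparison, all but HAI2, against 38.8% of all genes. In seedlings 6 of the 9 had a gained peak, against 8.65% of all genes, and in mesophyll 6 did, against 7.13%. In WT roots 4, 5 and 7 did at 45 min, 2 h and 4 h, against 1.49%, 19.3% and 17.0% of all genes. A lost peak was found at 4 of the 9, against 50.4% of all genes. In guard cells HAI3 was the only one with a gained peak at 4 h, against 6.79% of all genes. HAI3 and HAB1 were those at 24 h, against 6.02%. HB7, HB12, HB5 and HB6 had a gained peak at 0 of 4 genes in seedlings and in roots at 45 min and 2 h, 1 in roots at 4 h (HB6), 2 in mesophyll (HB7 and HB12), 1 in guard cells at 4 h (HB7) and 2 at 24 h (HB7 and HB5). In the mutant, 0 of the 4 had a gained peak in any of the 3 comparisons, where 6.66% (guard cells), 3.28% (roots at 45 min) and 4.85% (roots titled 2 h) of all genes did. A count of 0 of 4 genes lies near these shares. Of the PP2C genes, HAI2 had a gained peak in mutant guard cells, HAB1 in mutant roots at 45 min, and HAB1 and HAI3 in the list titled 2 h.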

How the data were processed

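The deposited files were 18 peak lists in narrowPeak layout, 1 for each group of samples. The authors' −log10 p per peak (column 8) is deposited uncorrected, since column 9 was −1 in every row, and ran from 2.84 to 150.1. The authors' area score (column 7) was never below 200.0. Summit offsets are also the authors' deposited values. Per the submitters' processing notes, the build was TAIR10, and the tools named there include Trim Galore 0.6.5, Genrich and bedtools 2.30, without their settings. How samples of a group were combined is not given in the sources used here, and the depth is unknown.

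Peaks were ranked within a list by −log10 p, with ties by area score, using Python 3.11.15 and pandas 2.3.3. A gained or lost peak shared no base with the other list. Summits at most 150 bp apart formed a site. Gene positions came from a RefSeq table of TAIR10.1. Its fit to the lists was checked in the untreated WT roots, where 37.4% of summits were at most 150 bp from an end of a gene. Moving summits by 5000 bp in either direction gave 14.0% and 13.9%. Gene models without strand meant that ends were named by coordinate, and sequence features were not analysed here. Counting was tested on simulated data.

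The 4 genes, the family and PP2C lists and the markers were chosen with earlier results of these data known. The measures of overlapping peaks, covered stretches and moves of 10 points were chosen after values were seen. Genes named are the 4, members of both lists with a gained peak, and the 3 genes most like each. The members of those lists without any peak in guard cells were named in addition. Alternatives covered the distance from the gene, any base of a peak in place of its summit, and a −log10 p of at least 5. Lists were also cut to the shortest list for presence, and to the shorter list of a comparison for gained and lost peaks. The other alternatives were the overlap rule, ranking by area score, the linkage of summits and leaving out the abf1/2/3/4 root list of uncertain time.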

Additional observations from a re-analysis of the deposited data

Results flagged for a closer look

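The results given here are differences in direction between tissues, times or genotypes in the rank of the strongest peak, in percentage points nearer the top with ABA. None was tested, since a group had 1 list. For HB5 the difference was −0.23 points in seedlings, −2.80 in mesophyll and −3.90 in guard cells after 4 h, but 0.11 in roots after 4 h. In WT roots HB5 gave −0.26 points after 45 min and 0.053 after 2 h. In abf1/2/3/4 roots it gave 0.024 points after 45 min and −0.70 in the comparison titled 2 h. For HB6 in WT roots the difference was −0.59 points after 45 min and −0.61 after 2 h, but 2.56 after 4 h. All these peaks ranked in the top 10 percent of their lists, and the differences in roots were under 3 points. No such opposite directions were found for HB7 or HB12 between the tissues and times in which both lists had a peak.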

How the results depend on the processing

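Of 112 results under alternative settings, 97 stayed within 1.5 times the reported count and 15 did not. Those that stayed include HB7 with a peak in 18 lists, against 13 as reported, where any base of a peak was counted or within 3000 bp. With peaks taken within 500 bp of a gene, HB12 had a peak in 7 lists and a gained peak in 0 WT ABA comparisons, and HB6 had a gained peak in 0. Within 3000 bp, HB7 had a lost peak in 1 comparison, HB5 a lost peak in 4 and a gained peak in 1 mutant comparison, and HB6 a gained peak in 5. With a −log10 p of at least 5, HB12 had a gained peak in 2 comparisons, HB5 a gained peak in 0 and a lost peak in 2. Under either other overlap rule (50 percent of the shorter peak, or a summit inside the other peak) HB6 had a gained peak in 2. Ranked by area score, HB7 was in the top 10 percent in 6 lists and HB12 in 9. Linking summits at most 75 bp apart gave HB12 5 sites. The cause of these differences was not tested, apart from the distance and linkage, which change what is counted. No paired analysis was possible because each group has 1 list and no test was made, and leaving out single samples was not run for the same reason. Without the abf1/2/3/4 root list of uncertain time, the mutant counts of gained peaks stayed at 0 for all 4 genes.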
